A study of Mus musculus with 4 samples.

Results

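Chains of accessible regions that lie close together and away from gene ends were described in palatal mesenchyme of mouse embryos, in 7 clusters with 29 regions in all. ATAC-seq, in which a transposase cuts open chromatin, was run on GFP-positive cells sorted from the palate at stage E14.5. The mutant group was Shox2Cre/-;Nkx2.5F/F;R26RmTmG, with Cre at one Shox2 allele and the other Shox2 allele lost, and the control group was Shox2Cre/+;Nkx2.5F/F;R26RmTmG, with the other Shox2 allele intact, and each group had 2 libraries. Both groups carried floxed Nkx2-5 alleles, Cre driven by the Shox2 locus and a reporter that turns GFP on after Cre acts, so the controls were not wild type, and the GFP gate keeps cells in which Cre has acted or whose precursors it acted in. Per the labels, 50000 cells were pooled for each group, and nothing says that the libraries of a group came from separate embryos, so differences between them may be technical.

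Peaks of the 4 libraries that shared at least 1 bp were merged into 39843 regions on chromosomes 1 to 19 and X, and 18904 of them held peaks from all 4 libraries. The term distal was given to the 9276 of these shared regions whose midpoint lay over 1 kb from every end of a protein-coding gene. Neighbouring distal regions were chained where the gap between them was at most 12.5 kb, and chains of 4 or more were kept. The 29 regions were thus chosen by the presence of peak calls in all libraries and by position, and their number is a description of that choice. They are 29 of 39843 merged regions and 29 of 9276 shared distal ones. Apart from the cluster near Chd2, which had 5 regions, each cluster had 4 regions.

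Accessible regions away from gene ends commonly include enhancers, short stretches of DNA where transcription factors bind and act on a promoter at a distance. Enhancers of genes that set cell identity often lie in groups, and joining neighbours across gaps of this length is a usual first step in listing them; the groups are then ranked by a histone mark or a bound coactivator, which was not measured in this series. Shox2 encodes a homeobox protein that acts in the front part of the palate, and the study's question is whether accessibility in cells of its lineage needs it. In a bulk sample, a weaker peak from fewer cells with an open region and from less opening in each cell cannot be told apart.

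The value compared below is a percentile. Each region took the highest −log10 p of its peaks in a library, and this was ranked among the 18904 shared regions of that library on a scale of 0 to 100, so that every library averaged 50 over the shared regions. The lists held 29225 and 31832 peaks in the mutants and 30239 and 22966 peaks in the controls, and control 2 had the shortest list. Read depth is unknown. As a check of the sorted cells, a shared region lay within 1 kb of a gene end for 3 of 5 palatal mesenchyme markers (Twist1, Osr2 and Msx1), and for 0 of 4 skeletal muscle markers. It did so also for 3 of 4 pericyte and smooth muscle markers, 3 of 4 neuron markers, 2 of 5 Schwann cell and glia markers, and 1 marker each of endothelium (of 5), epithelium (of 6) and blood (of 4). Over all protein-coding genes the share with such a region was 50.03%, so these counts do not separate the cell types, and an accessible gene end alone does not show that a gene is used.

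The clusters were not all made of regions that lack a transcription start. Of the 29 regions, 7 held an annotated start of a protein-coding gene or long noncoding RNA, 4 held a small nuclear RNA (snRNA) gene, and 10 held either one. That is 34.5% of the clustered regions against 18.0% of the other 9247 shared distal regions. For starts alone the shares were 24.1% against 17.8%, and for snRNA genes 13.8% against 0.216%. The 4 clustered regions with an snRNA gene were all in the Mreg/Pecr cluster. The starts belonged to Atp5d, Midn, Cirbp, Bmf, the long noncoding RNA D230017M19Rik and, in 2 regions, Gpr146. The rule measures distance from the outer ends of protein-coding genes, so it keeps starts that lie inside such a gene, and the start of D230017M19Rik, which is not protein-coding. In the 3 clusters near Dclk1, Chd2 and Map3k7cl, no region held an annotated start or an snRNA gene. The annotation of starts used here had no entry for Chd2 or Map3k7cl. A start of Map3k7cl in the regions inside that gene could therefore not be counted. Of the clustered regions, 14 (48.3%) lay inside a protein-coding gene, against 51.6% of the other shared distal regions, and their median width was 1150 bp, against 1046 bp.

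**Figure D1:**
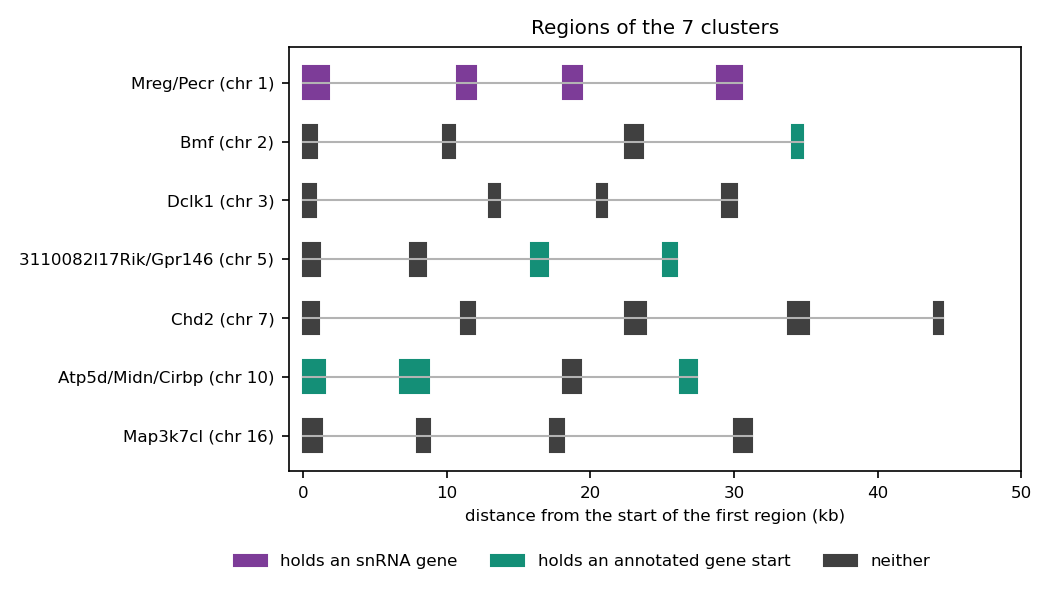
Positions of the 29 regions along the 7 clusters, as distance in kb from the start of the first region. Each bar is 1 region, drawn to scale and coloured by what it holds, and each cluster is a row; all 4 Mreg/Pecr regions hold an snRNA gene, and the Chd2 cluster is the longest, at 44.5 kb.

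The windows below hold the sequence at annotated starts inside the clusters. They run from 250 bases before an annotated start to 50 after it, are printed 5′ to 3′ on the strand of the gene, and come from RefSeq on GRCm38.p6, the same build as mm10. They are shown because these regions counted as distal although they coincide with a gene start, 1 for each cluster with starts and 1 more for the gene-dense cluster on chromosome 10. Capitals mark the GC box GGGCGG, the box CCAAT, the E-box CACGTG and the octamer ATGCAAAT, on either strand; where boxes overlap or abut, their capitals run together.
D230017M19Rik, in region 3 of the Mreg/Pecr cluster (chr1:72243743-72244042, plus strand): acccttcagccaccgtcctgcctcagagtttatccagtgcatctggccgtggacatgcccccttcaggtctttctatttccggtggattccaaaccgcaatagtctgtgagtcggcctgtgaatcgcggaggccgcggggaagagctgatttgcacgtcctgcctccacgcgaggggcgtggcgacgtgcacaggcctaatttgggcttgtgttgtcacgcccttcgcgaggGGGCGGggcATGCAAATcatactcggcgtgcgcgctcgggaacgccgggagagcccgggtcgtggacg
Bmf, in region 4 of its cluster (chr2:118544538-118544837, minus strand): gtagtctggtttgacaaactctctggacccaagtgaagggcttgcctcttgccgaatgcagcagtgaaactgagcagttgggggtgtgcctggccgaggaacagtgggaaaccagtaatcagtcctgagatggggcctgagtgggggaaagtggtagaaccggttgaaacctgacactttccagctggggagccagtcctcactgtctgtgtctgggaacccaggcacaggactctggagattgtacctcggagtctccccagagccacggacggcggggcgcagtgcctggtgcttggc
Gpr146, in region 3 of its cluster (chr5:139380389-139380688, plus strand): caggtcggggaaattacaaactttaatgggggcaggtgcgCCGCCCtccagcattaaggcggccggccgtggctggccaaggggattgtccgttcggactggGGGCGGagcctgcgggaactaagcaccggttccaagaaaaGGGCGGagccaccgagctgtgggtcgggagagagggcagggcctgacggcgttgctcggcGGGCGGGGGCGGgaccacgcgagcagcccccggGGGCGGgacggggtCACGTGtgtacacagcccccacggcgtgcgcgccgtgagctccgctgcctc
Midn, second start in region 2 of the chromosome 10 cluster (chr10:80149432-80149731, plus strand): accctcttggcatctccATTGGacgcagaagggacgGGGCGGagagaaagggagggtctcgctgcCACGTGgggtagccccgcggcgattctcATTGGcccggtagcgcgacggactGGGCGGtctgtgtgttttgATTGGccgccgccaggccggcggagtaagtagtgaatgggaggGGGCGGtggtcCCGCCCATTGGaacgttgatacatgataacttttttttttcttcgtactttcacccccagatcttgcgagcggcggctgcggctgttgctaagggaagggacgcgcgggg
Cirbp, first start in region 4 of the chromosome 10 cluster (chr10:80167589-80167888, plus strand): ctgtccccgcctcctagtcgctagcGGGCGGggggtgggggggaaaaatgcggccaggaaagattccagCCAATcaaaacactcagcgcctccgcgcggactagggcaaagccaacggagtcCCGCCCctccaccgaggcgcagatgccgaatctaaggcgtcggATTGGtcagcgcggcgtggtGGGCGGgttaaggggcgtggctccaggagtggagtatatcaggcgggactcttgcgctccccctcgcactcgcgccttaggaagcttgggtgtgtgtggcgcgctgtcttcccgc

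These 4 motifs were chosen after the windows were seen, and a match is a description of the letters. The GC box was in 6 of the 10 windows with a start inside a clustered region, with 22 matches, and in 35.7% of all 32851 RefSeq windows. Gpr146, Atp5d, Midn and Cirbp each gave several of these windows, and those of Atp5d overlap, so the windows are not separate sites. CCAAT was in 2 of the 10 windows and in 37.4% of all windows, and the E-box in 2 of the 10 and in 7.15%. The octamer was in 1 of the 10 windows, that of D230017M19Rik, and in 1.74% of all windows. Median GC content was 62.2% in the 10 windows and 52.7% in all windows. The Bmf window printed above held none of the 4 motifs.

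The Mreg/Pecr cluster covered 30.5 kb of chromosome 1 (chr1:72225477-72256025), outside protein-coding genes, between the start of Mreg (melanoregulin, which acts in pigment organelles) and the far end of Pecr (a peroxisomal enoyl-CoA reductase). Each of its 4 regions held an snRNA gene of 191 bp, namely Gm25360, Gm23472, Gm24497 and Gm25939. Small nuclear RNAs are short structural RNAs, many of them parts of the spliceosome, and no role is given here for these copies. The gene table held 11 more snRNA genes of this length, of which 3 lay in a shared region; over all 1003 snRNA genes, these 4 included, 34 did (3.39%). The genes' centres lay 39 to 208 bp from the midpoints of their regions. In region 3 the octamer printed above lay 222 bp by coordinate from the nearer end of Gm24497, and the start of D230017M19Rik lay 220 bp from it. Octamers are known from the distal part of snRNA promoters; the table used gives no strand for the snRNA genes, and binding was not measured. Copies of small RNA genes can be near-identical and then share reads; the sequences of these 4 were not compared, so their peaks are less certain than those of single-copy regions.

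The regions of this cluster ranked at or above the middle of the shared regions, with 1 value just below 50. Region 1, the one nearest Mreg, was at the percentiles 49.8 and 62.9 in the mutants, against 69.1 and 63.2 in the controls. Both mutants were lower than both controls, with mutant 2 close to control 2. Region 2 was at 63.4 and 71.5 in the mutants, against 66.5 and 73.0 in the controls, and the groups overlapped. Region 3, with the D230017M19Rik start, was at 76.6 and 74.2 in the mutants, against 78.7 and 81.6 in the controls. Region 4 was at 60.5 and 60.3 in the mutants, against 65.7 and 63.8 in the controls. In both of these regions the mutants were lower than the controls. The mean over the 4 regions was 62.6 and 67.2 in the mutants, against 70.0 and 70.4 in the controls, a difference of −5.30 percentile points, and no mutant reached a control.

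The Bmf cluster covered 34.8 kb of chromosome 2 (chr2:118510154-118544940). Bmf encodes a BH3-only protein that promotes apoptosis. Regions 1 and 2 lay beyond the far end of the gene, region 3 lay inside it and region 4 (chr2:118544195-118544940) held a start of Bmf that lies inside the gene. That last region was at the percentiles 37.7 and 48.3 in the mutants, against 57.0 and 73.2 in the controls. The mutants were lower than the controls, with a difference of −22.1 points between the means, and the authors' fold enrichment of its peaks was 4.65 and 5.07 in the mutants, against 5.87 and 6.54 in the controls. Region 2, outside the gene, was at 9.92 and 20.8 in the mutants, against 28.4 and 29.4 in the controls, again with both mutants lower. Region 1 was at 37.3 and 43.2 in the mutants, against 49.6 and 31.9 in the controls. Region 3 was at 28.8 and 33.1 in the mutants, against 30.2 and 26.1 in the controls. In these regions the groups overlapped. The cluster mean was 28.4 and 36.4 in the mutants, against 41.3 and 40.1 in the controls, and its difference of −8.32 points was the largest of the 7 clusters; mutant 1 was 28.4 and stood apart from the other 3 libraries.

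The Dclk1 cluster covered 30.2 kb of chromosome 3 (chr3:55521654-55551861) across the far end of Dclk1, which encodes a doublecortin-like kinase that binds microtubules. Regions 1 and 2 lay inside the gene, region 3 in the long noncoding RNA gene Gm31796 and region 4 (chr3:55550842-55551861), by its midpoint, 12.3 kb past the end of Dclk1. Peaks here ranked low, with cluster means of 13.0 and 10.9 in the mutants, against 17.9 and 18.7 in the controls. Region 4 was at 3.70 and 6.47 in the mutants, against 22.4 and 26.4 in the controls. Both mutants were lower than both controls, with a difference of −19.3 points and fold enrichment of 5.29 and 5.47 in the mutants, against 7.25 and 6.66 in the controls. Region 2 was at 9.71 and 11.5 in the mutants, against 15.2 and 16.1 in the controls, with both mutants lower. Region 1 was at 24.6 and 21.6 in the mutants, against 30.2 and 22.2 in the controls. Region 3 was at 14.2 and 3.94 in the mutants, against 3.61 and 10.01 in the controls. In both the groups overlapped. Shox2 lies on the same chromosome, at a distance of 11.4 Mb.

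The cluster at 3110082I17Rik and Gpr146 covered 26001 bp of chromosome 5 (chr5:139364205-139390205), and all 4 of its regions lay inside a gene. Gpr146 encodes an orphan G protein-coupled receptor and lies within the bounds of 3110082I17Rik. Region 2 (chr5:139371635-139372739) was at 37.2 and 46.7 in the mutants, against 73.4 and 48.1 in the controls. Both mutants were lower, with a difference of −18.8 points between the means, but control 1 stood far above the other 3 libraries and control 2 was close to mutant 2. Region 1 was at 33.0 and 7.67 in the mutants, against 9.31 and 15.1 in the controls, where mutant 1 alone was high. Region 3, which holds the GC-rich Gpr146 start printed above, was at 39.8 and 16.6 in the mutants, against 40.0 and 25.8 in the controls. Region 4, with a further Gpr146 start, was at 1.72 and 9.67 in the mutants, against 15.3 and 7.04 in the controls. The groups overlapped in these 3 regions and in the cluster mean, which was 28.0 and 20.2 in the mutants, against 34.5 and 24.01 in the controls.

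The Chd2 cluster was the longest and the only one with 5 regions, over 44.5 kb of chromosome 7 (chr7:73584035-73628563). Chd2 encodes a chromatin remodeller, and the neighbouring long noncoding RNA Chaserr is known to hold its expression down. The regions lay outside protein-coding genes, 42.8 to 86.5 kb from Chd2 on the side of Chaserr, and regions 1 to 3 lay in the long noncoding RNA gene Gm30149. The 2 highest-ranked of the 29 regions were here. Region 2 (chr7:73594992-73596004) was at 89.5 and 89.3 in the mutants, against 85.9 and 84.6 in the controls, with fold enrichment of 12.2 and 12.6 in the mutants, against 12.2 and 11.04 in the controls. Its percentiles were higher in both mutants. Region 4 (chr7:73617779-73619241) was at 83.0 and 82.6 in the mutants, against 89.0 and 92.2 in the controls. In it both mutants were lower, with a difference of −7.76 points.

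Region 1 of the Chd2 cluster was at 51.5 and 39.3 in the mutants, against 56.5 and 71.1 in the controls. Both mutants were below both controls, with a difference of −18.4 points. Region 3 was at 48.5 and 50.5 in the mutants, against 53.6 and 38.2 in the controls. Region 5, the farthest from Chd2, was at 12.9 and 27.7 in the mutants, against 22.6 and 8.95 in the controls. The groups overlapped in both. The cluster mean was 57.1 and 57.9 in the mutants, against 61.5 and 59.0 in the controls. Its difference of −2.79 points averaged over regions with differences of opposite sign, and mutant 2 lay close to control 2.

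The cluster on chromosome 10 covered 27.4 kb (chr10:80141132-80168563) and ran through 3 short genes. Atp5d encodes a subunit of the mitochondrial ATP synthase, Midn encodes midnolin, which brings proteins to the proteasome, and Cirbp encodes a cold-inducible RNA-binding protein. Regions 1, 2 and 4 held starts of Atp5d, Midn and Cirbp, and region 3 lay 1.46 kb past the end of Midn, the clustered region nearest to a gene end. Region 4, at the Cirbp starts, was at 79.0 and 79.2 in the mutants, against 82.7 and 81.8 in the controls. Both mutants were lower, with a difference of −3.18 points. Region 1, at the Atp5d starts, was at 48.7 and 33.7 in the mutants, against 52.6 and 59.5 in the controls, with both mutants lower, and it held 2 peaks each in mutant 1 and control 1 and 1 peak each in mutant 2 and control 2. Region 2, at the Midn starts, was at 56.4 and 56.0 in the mutants, against 52.8 and 69.7 in the controls, and the groups overlapped. Region 3 was at 69.5 and 68.2 in the mutants, against 68.9 and 69.2 in the controls, and its 4 libraries were nearly equal. The cluster mean was 63.4 and 59.3 in the mutants, against 64.3 and 70.0 in the controls, with both mutants lower.

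The Map3k7cl cluster covered 31.2 kb of chromosome 16 (chr16:87567418-87598647), with regions 1 to 3 inside Map3k7cl, the Map3k7 C-terminal-like gene, and region 4 (chr16:87597401-87598647) 2.69 kb past its end. This cluster held the widest split between regions. Region 4 was at the percentiles 11.7 and 5.37 in the mutants, against 35.6 and 40.2 in the controls. Its difference of −29.4 points was the largest of any clustered region, and fold enrichment was 5.67 and 5.47 in the mutants, against 8.02 and 7.53 in the controls. Region 2 was at 57.8 and 55.6 in the mutants, against 41.7 and 35.1 in the controls, with fold enrichment of 9.41 and 9.63 in the mutants, against 8.21 and 6.97 in the controls. Here both mutants were higher, by 18.3 points. Region 1 was at 69.5 and 70.8 in the mutants, against 59.5 and 62.6 in the controls, also with both mutants higher, by 9.09 points. Region 3 was at 19.9 and 34.6 in the mutants, against 34.1 and 27.6 in the controls, with overlapping groups. The cluster mean was 39.7 and 41.6 in the mutants, against 42.7 and 41.4 in the controls, so that differences of opposite sign within 31.2 kb left the mean nearly level.

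**Figure D2:**
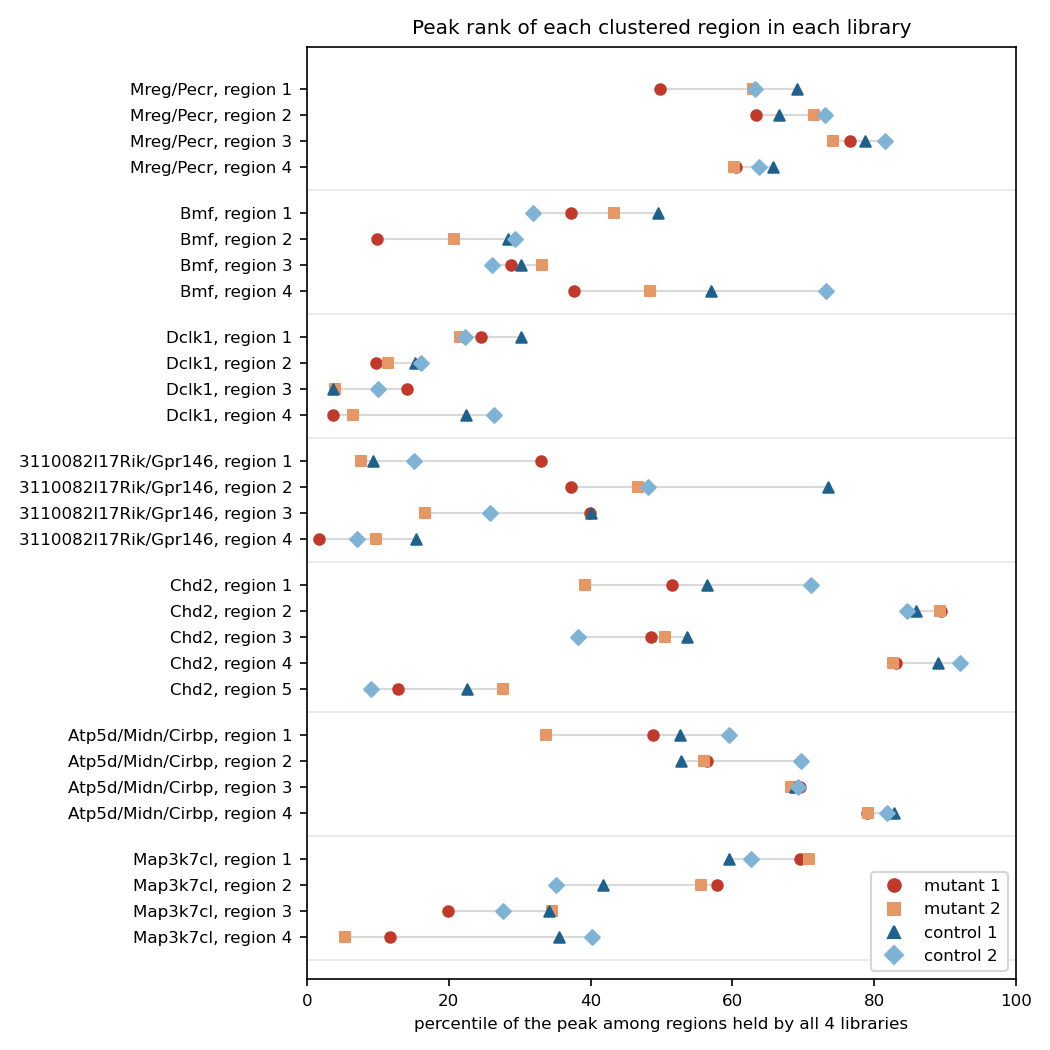
Percentile of each of the 29 clustered regions in each library, on a scale of 0 to 100 among the 18904 regions held by all 4 libraries. Each row is 1 region with 1 point for each library; region 4 of Map3k7cl is at 11.7 and 5.37 in the mutants against 35.6 and 40.2 in the controls, while region 2 is at 57.8 and 55.6 in the mutants against 41.7 and 35.1 in the controls.

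Between genotypes, 13 of the 29 regions (44.8%) had both mutant percentiles below both control percentiles, against 18.0% of all 18904 shared regions. In the other direction, 3 of 29 (10.3%) had both mutants above both controls, against 17.6% of all shared regions. The 3 were region 2 near Chd2 and regions 1 and 2 in Map3k7cl. Every cluster held at least 1 region that was lower in both mutants. Of the other shared distal regions, 17.1% were lower and 19.3% higher in both mutants. These shares are descriptions, since regions of a cluster are not replicates. With each library left out in turn, 15 to 18 regions were lower and 5 to 7 higher, where 33.1% to 35.8% and 32.8% to 35.0% of all shared regions were so with fewer values to order.

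The mean percentile over the 29 regions was 42.3 in mutant 1 and 42.5 in mutant 2, against 47.9 in control 1 and 46.7 in control 2. The mutants averaged 42.4 ± 0.133 and the controls 47.3 ± 0.896 (SD, n = 2 each), a difference of −4.94 points that exceeded the spread within either group. The exact permutation test over the 4 libraries gave a two-sided p of 0.3333, the smallest that 2 libraries against 2 can give, so the design cannot reach 0.05. The other shared distal regions averaged 37.3 and 37.5 in the mutants, against 37.0 and 36.9 in the controls. The clustered regions' margin over them was thus smaller in the mutants than in the controls (mutant minus control −5.44 points, exact permutation p = 0.3333, two-sided). Without the regions that hold a start or an snRNA gene, 7 of 19 regions were lower and 3 of 19 higher in both mutants. The shares of shared regions beside these counts were 17.9% lower and 17.6% higher. The mean difference was then −3.51 points.

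The sign of this difference depended on what peaks were ranked against. Ranked within each library's whole list, in place of the shared regions alone, the clustered regions averaged 59.7 and 62.8 in the mutants, against 65.9 and 54.9 in the controls. The difference was then 0.863 points, with control 2 lowest and control 1 highest (exact permutation p = 1.0, two-sided). On that scale all shared regions averaged 65.2 and 67.7 in the mutants, against 66.3 and 57.3 in the controls, so control 2, the shortest list, was low over shared regions in general. The other shared distal regions averaged 55.5 and 58.8 in the mutants, against 56.8 and 45.5 in the controls. The clustered regions' margin over them was thus again smaller in both mutants than in both controls, although the clustered mean itself did not separate the groups. Of the 29 clustered regions, 5 were lower and 4 higher in both mutants, against 5.61% and 29.1% of all shared regions. Ranked among the shared regions by fold enrichment in place of −log10 p, the difference was −4.69 points. By that measure 11 regions were lower and 3 higher, against 17.42% and 17.45% of all shared regions.

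**Figure D3:**
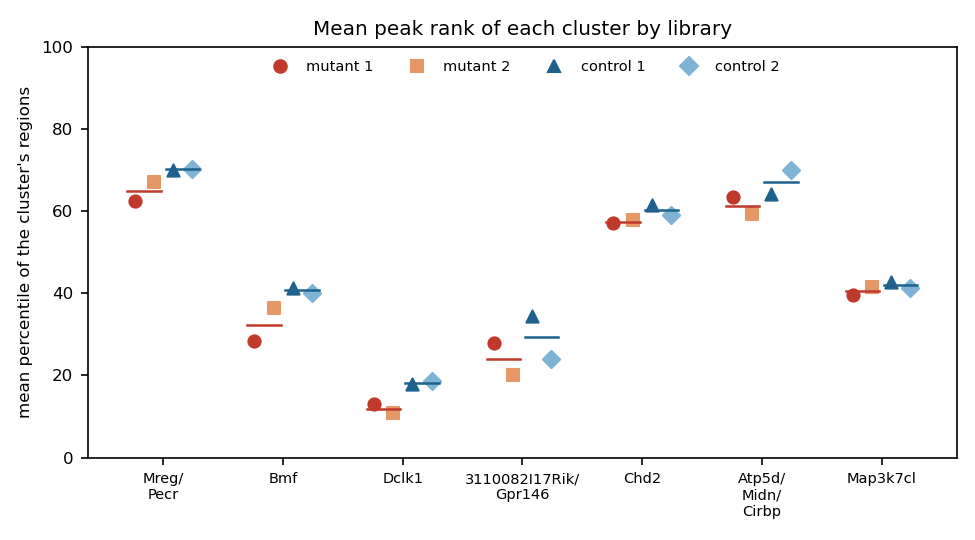
Mean percentile of the regions of each cluster in each library, with a line at the mean of each group of 2 libraries. Both mutants lie below both controls in 5 of the 7 clusters, and the groups overlap at 3110082I17Rik/Gpr146 and Map3k7cl.

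By cluster, the mean percentile was lower in both mutants than in both controls in 5 of 7 clusters and higher in 0, against 17.5% and 20.7% of the 560 chains of 2 or 3 regions. All 7 mutant minus control differences were below 0, with a range of −8.32 at Bmf to −1.39 at Map3k7cl and a median of −5.30. The same direction was not general among shorter chains. Of the 38 chains of 3 regions, 21 had a difference below 0, with a median of −1.10, and of the 522 pairs 248 did, with a median of 0.337. With chains of 3 counted as clusters, the mean over 143 regions differed by −1.45 points (exact permutation p = 1.0, two-sided). With a chaining distance of 25 kb the mean over 151 regions differed by −1.41 points (exact permutation p = 0.3333, two-sided). Both of these sets include the 29 clustered regions. Under both looser rules the difference was thus smaller than the −4.94 points of the 7 clusters.

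**Figure D4:**
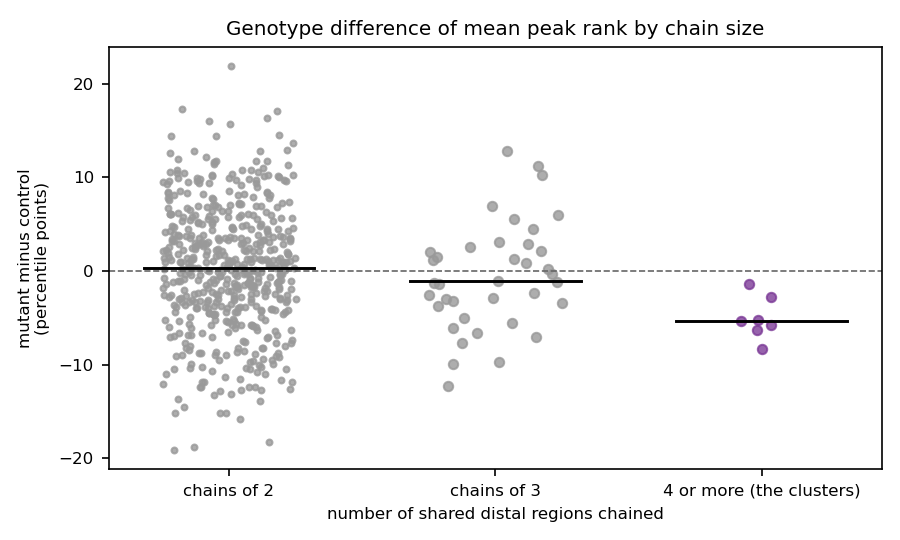
Mutant minus control difference of the mean percentile, in percentile points, for chains of 2, 3, and 4 or more shared distal regions. Each point is 1 chain and each line a median; the 7 clusters lie between −8.32 and −1.39, while chains of 2 and 3 spread on both sides of 0.

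Set against the other shared distal regions, the clustered regions ranked higher by −log10 p in each library, by 4.93 and 4.94 points in the mutants and by 10.95 and 9.81 points in the controls. The mean margin was 7.66 points (exact sign permutation over the 4 libraries, p = 0.13, two-sided, the smallest it can give). All 4 libraries score the same regions, so this p covers only their agreement and not the spread among regions or clusters. By fold enrichment the order was the reverse. The median fold enrichment of the clustered regions was 6.41 and 6.70 in the mutants and 7.25 and 6.66 in the controls, against 6.97 and 7.34 in the mutants and 7.48 and 6.77 in the controls for the other regions, lower in each library (exact sign permutation p = 0.13, two-sided). Ranked by fold enrichment, the clustered regions stood 6.74 points below the others on average. Against other shared distal regions inside genes only, the margin by −log10 p was 4.62 points. The margin was not shared by all clusters. The means at Dclk1 and 3110082I17Rik/Gpr146 lay below that of the other regions in every library, and the mean at Bmf did so in the mutants only. The remaining clusters lay above it in every library. The margin without regions that hold a start or an snRNA gene was not computed. The top of the clustered regions by their lowest percentile was region 2 near Chd2, followed by region 4 near Chd2, region 4 at Cirbp, region 3 of Mreg/Pecr and region 3 at Midn.

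Close spacing was rare among shared distal regions. Of 9256 gaps between neighbours, 620 (6.70%) were at most 12.5 kb, and the median gap was 130 kb. The widest gaps kept within clusters were 12054 bp at Dclk1, 11861 bp at Bmf and 11794 bp at Map3k7cl. Over all distal neighbours, the gaps just inside the limit were 12499 bp at Zfp438, 12464 bp at Uck2 and 12427 bp at Spry2, and those just outside it were 12501 bp at Impdh1, 12521 bp at Itpr1 and 12521 bp at Lrrtm1. The midpoints closest to a gene end were 1460 bp from it at Midn, 1547 bp at Atp5d and 1968 bp at Cirbp. Beyond the clusters' own ends, the nearest shared distal region was 22.3 kb away at Dclk1, 24.7 kb at Chd2, and up to 368 kb at Gpr146. Within clusters the regions covered 10.7% of the span at Bmf and up to 21.8% on chromosome 10.

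The spans of the 7 clusters held 30 merged regions, of which 29 were the clustered regions and hold a peak in every library by the rule. Over all regions, 1.07% were called in both controls and no mutant, and 4.47% in both mutants and no control. Within the spans 1 region was free to be of either kind, and it was neither: it lies at Dclk1 and held a peak in mutant 2 alone. The peak names carry numbers, and gaps in the numbering show peaks that were numbered and not listed. Within the spans there were 3.56 and 3.11 such unlisted peaks per 100 kb in the mutants, and 2.22 in each control. Over all chromosomes there were 3.29 and 3.42 per 100 kb in the mutants, and 3.06 and 2.87 in the controls. The spans' counts rest on 8 and 7 unlisted peaks in the mutants and 5 in each control, and the Mreg/Pecr and Map3k7cl clusters had 0 in any library.

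Of 21631 protein-coding genes, 11 (0.0509%) held a clustered region or were the nearest gene within 100 kb of one. Of 289 genes in 22 lists of palate transcription factors, signalling pathways, matrix, bone, axon guidance and cell type markers, 0 did, which at that share says nothing about the lists. At least 1 shared distal region was assigned to 166 of the 289 (57.4%), against 23.8% of all protein-coding genes. Gene length was not matched in these shares, and a longer gene has more room for regions inside it. The list genes with the most were Nfia, a nuclear factor I gene, and Robo2, an axon guidance receptor, with 9 each, Rarb, a retinoic acid receptor, with 8, and Gli3, Mef2c and Sema3a with 7 each. Gli3 is a transcription factor of hedgehog signalling and Mef2c one of muscle and bone. The genes named here ran from 163 kb (Mef2c) to 1555 kb (Robo2) in length. The longest chain was 1 region at Nfia and Rarb, 2 at Robo2, Gli3 and Mef2c, and 3 at Sema3a. The smallest gap was 19.7 kb at Nfia and 19.3 kb at Rarb, and 4.28 kb at Gli3, 4.66 kb at Mef2c, 4.84 kb at Robo2 and 6.501 kb at Sema3a, within the chaining distance. With chains of 3 counted, Id1, Sema3a and Tnc had a cluster, and with a chaining distance of 25 kb Pax9 had one. The share of all protein-coding genes under these looser rules is not given here, so these counts say nothing about the lists either.

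The chains of 3 regions at these list genes differed in direction. The chain at Tnc, which encodes the matrix protein tenascin C, had a mean percentile of 26.1 and 29.3 in the mutants, against 41.4 and 33.9 in the controls. Both mutants were lower. The chain at Sema3a, which encodes a repulsive guidance factor, was at 26.8 and 20.9 in the mutants, against 17.1 and 5.02 in the controls, with both mutants higher. The chain at Id1, which encodes an inhibitor of DNA binding that responds to BMP signals, was at 52.5 and 46.2 in the mutants, against 46.1 and 50.01 in the controls, and the groups overlapped. Nkx2-5 had 0 clusters on its chromosome, and the only cluster on the chromosome of Shox2 was the one at Dclk1; without chromosomes 3 and X the mean difference of the clustered regions was −4.72 points.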

How the data were processed

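ATAC-seq peak lists of 2 mutant and 2 control libraries were used, grouped by the genotype in the labels, and the build was mm10 per the submitters' processing notes. The authors deposited 1 list per library with a score, a fold enrichment ratio, a −log10 p-value and a −log10 q-value for each peak; not given in the sources used here are the aligner, the peak caller, its background and any shift for the transposase. These values are the authors' own and served to rank or describe peaks within a library. Where a region held several peaks, the highest value was used. Without a known read depth, values carry no counting error. Names, gene ends and promoter windows came from RefSeq on GRCm38.p6, and no region sequence was used. All 289 list genes were found in that table.

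Merging, chaining, ranking and exact permutation tests used Python 3.11.15, numpy 2.4.6 and pandas 2.3.3, and were tested on simulated data. Replicate numbers did not pair the libraries. The clusters, lists, motifs and tests were chosen with earlier results of these data known. Named genes are those of the clusters, the gaps nearest the chaining limit, list genes with chains or many distal regions, and Shox2 and Nkx2-5; the list genes with chains of 3 and with many distal regions were chosen after their values were seen. Other settings tried were the chaining distance, cluster size, distance from gene ends, peak rank, peak numbers, overlap and libraries left out.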

Additional observations from a re-analysis of the deposited data

How the results depend on the processing

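The number of clusters depended on the rule. A chaining distance of 5 kb left 0 clusters with 0 regions, and so gave no percentile values, and 25 kb gave 34 clusters with 151 regions. At least 3 regions gave 45 clusters with 143 regions, at least 5 gave 1 with 5, and the upper 50% of each list 2 with 8. With a library left out, 7 to 19 clusters with 29 to 77 regions were found. There were 12 clusters and 50 regions without mutant 2, and 19 and 77 without control 2. The 29 regions were among them each time, but leaving out a library loosens the rule, so this was all but fixed in advance. The margin of clustered over other shared distal regions turned to −6.74 when ranked by fold enrichment, and ranged from 6.56 to 8.57 with a library left out. The mutant minus control difference turned to 0.863 on whole-list ranks, and ranged from −5.58 to −4.31 with a library left out; the cause was not tested.

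The count of 13 lower regions was 5 on whole-list ranks, where 5.61% of all shared regions were lower. It was 7 without starts and snRNA genes, where 19 regions remained and 17.9% of shared regions were lower. The count of 3 higher regions ranged from 5 to 7 with a library left out, against 32.8% to 35.0% of all shared regions. At 25 kb, 1 region called in both controls alone and 1 in both mutants alone lay in the longer spans, and 1 list gene had a cluster, while 3 had one with chains of 3. Deviations of libraries with the same replicate number had a correlation of 0.0274 over 18904 regions, and no label ties them, so the numbers do not pair them. With the replicate block the difference was −4.94 (exact sign permutation p = 0.50, the smallest it can give). Under it 16 regions were lower and 3 higher, against 26.4% and 25.9% of all shared regions. No other result was fitted with the block. Settings chosen after the data were seen were chains of 3 for the genotype difference, ranks among distal regions (−6.15) and leaving out starts and snRNA genes. Depth is unknown and limits what the absence of a peak can show.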
